A study of Mus musculus with 16 samples.

Results

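The B cell antigen receptor (BCR) signaling genes described here are 38 genes selected by name, from the receptor's signal chains through the kinases, adaptors, phosphatases and inhibitory coreceptors around it to the NFAT factors at the end of its calcium arm. They are 38 of the 27928 genes in the deposited table, and all 38 are among the 14761 genes that were tested. The RNA libraries were made from splenic B cells of the follicular (FO) and marginal zone (MZ) subsets, from WT and from cKO mice, 2 for every combination (4 groups). The question was how these genes differ between the FO and MZ subsets, and between cKO and WT within each subset, since TFII-I, the product of Gtf2i, is a factor bound and phosphorylated by the BCR kinase Btk.

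All mice were C57BL/6 and 8 to 12 weeks old. WT mice were BL6 animals without Cre. The cKO mice carried floxed Gtf2i alleles and a Cre that deletes in cells of the B lineage. A control with Cre alone is not part of the RNA libraries, so effects of the Cre and of the Gtf2i deletion cannot be told apart. B cells were enriched from spleen by negative selection and sorted as CD21lo CD23hi (FO) or CD21hi CD23lo (MZ). The labels number the libraries of a group but do not say that they came from separate animals, so the p-values measure the spread between these libraries, which may be technical. With 2 libraries in a group, both values are given in place of a mean and its error.

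Antigen binding to membrane immunoglobulin leads Src family kinases (Lyn, Blk, Fyn) to phosphorylate the cytoplasmic tails of CD79A and CD79B, where Syk docks. Syk phosphorylates the adaptor BLNK, which gathers Btk, Vav and phospholipase C gamma 2. The lipase yields calcium flux, which acts through calcineurin on NFAT, and diacylglycerol, which acts through protein kinase C beta on Bcl10 and Malt1 toward NF-kB and through RasGRP3 on Ras. Phosphoinositide 3-kinase supplies the lipid that recruits Btk and Akt, and the phosphatases SHP-1 (Ptpn6) and SHIP-1 (Inpp5d), called in by CD22, Siglec-G and PIR-B, set the brake. FO B cells recirculate and mostly answer T-dependent protein antigens, whereas MZ B cells line the marginal sinus and respond fast to blood-borne antigens.

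The 250 bases before the start sites of 4 members with large FO to MZ differences are printed here, since these genes were called between the subsets and sit at different steps of the pathway. Capitals mark GGAAGT (the core letters bound by ETS factors), ATGCAAAT (the octamer), CACGTG (an E-box) and TGGGAA (a core bound by Ikaros), each searched on both strands. Sequences are from RefSeq, build GRCm38.p6, written 5' to 3' on the gene's strand. Tec lies at chr5:72868449-72868698 (minus strand), Rasgrp3 at chr17:75435655-75435904 (plus strand), Prkcb at chr7:122288875-122289124 (plus strand) and Blnk at chr19:40994222-40994471 (minus strand).
Tec: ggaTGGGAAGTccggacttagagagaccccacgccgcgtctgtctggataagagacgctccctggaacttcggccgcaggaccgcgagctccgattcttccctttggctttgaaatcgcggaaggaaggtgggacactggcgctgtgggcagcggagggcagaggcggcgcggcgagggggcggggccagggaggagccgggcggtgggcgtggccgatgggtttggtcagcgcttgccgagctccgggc
Rasgrp3: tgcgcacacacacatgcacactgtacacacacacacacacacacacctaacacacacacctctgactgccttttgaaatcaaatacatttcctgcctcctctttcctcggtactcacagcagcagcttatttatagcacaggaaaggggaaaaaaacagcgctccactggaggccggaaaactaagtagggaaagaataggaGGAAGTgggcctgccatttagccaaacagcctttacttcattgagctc
Prkcb: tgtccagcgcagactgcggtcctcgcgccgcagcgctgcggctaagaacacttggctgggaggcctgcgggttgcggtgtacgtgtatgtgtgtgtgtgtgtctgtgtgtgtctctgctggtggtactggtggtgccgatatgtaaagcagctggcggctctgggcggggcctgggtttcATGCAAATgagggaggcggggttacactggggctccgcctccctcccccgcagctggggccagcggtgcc
Blnk: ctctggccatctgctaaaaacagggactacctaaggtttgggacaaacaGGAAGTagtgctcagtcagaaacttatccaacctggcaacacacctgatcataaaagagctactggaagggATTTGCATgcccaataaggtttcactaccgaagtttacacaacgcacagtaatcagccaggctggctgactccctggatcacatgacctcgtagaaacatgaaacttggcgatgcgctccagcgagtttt
In Tec, TGGGAA and GGAAGT overlap near the far end of the window. The octamer stood 70 bases before the Prkcb start and, on the opposite strand, 130 bases before that of Blnk, so that 1 of the 2 members with it was higher in FO and the other in MZ.

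Of the 38 members, 33 have a start site in the table of promoters. GGAAGT was present for 20 of these 33 members (60.6%), against 22.2% of the 27025 genes with a window. These genes were neither limited to those tested nor matched to the members in level. A gene can have several windows, and by window the shares were 51.1% of 47 and 19.7% of 32851. The 20 members include Cd79a, Ptprc, Vav1, Vav2, Vav3, Blnk, Tec and Rasgrp3, thus members called higher in FO, called higher in MZ and not called. ATGCAAAT was found for 2 members, Blnk and Prkcb (6.06%, against 1.81% of all genes), CACGTG for 5 (15.2% against 6.86%) and TGGGAA for 9 (27.3% against 24.1%). Such a match gives letters in a window and is not a measured binding site.

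The libraries held between 21546552 and 25083552 reads on genes. The sort markers followed the labels, with Cr2 (CD21) at 22942 to 26803 normalized counts (a gene's reads over its library's size factor) in FO and 86953 to 97087 in MZ libraries, and Fcer2a (CD23) at 24802 to 41973 and 3069 to 6708. Gtf2i was counted over its whole length, so that reads from exons outside the deletion are included, and stood at 2040 and 1992 for WT FO, 1523 and 1531 for cKO FO, 2864 and 2471 for WT MZ and 1782 and 1889 for cKO MZ. It was lower in every cKO library, with log2 differences of -0.40 in FO (limma adjusted p = 0.989) and -0.54 in MZ (0.363), and was not called. The genotypes also differed in sex-linked transcripts. Ddx3y, a Y-linked gene, was at 1.00 to 6.34 in the WT and 2682 to 5514 in the cKO libraries, and Xist was at 25930 to 47002 in WT and 21.7 to 89.7 in 3 cKO libraries, while cKO FO replicate 1 had 14748. Differences by sex and by genotype therefore cannot be told apart. A granulocyte list of 12 genes summed to 1976 in cKO MZ replicate 1 and to 54.9 to 132 in the other libraries.

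The members were expressed at high level. On the scale of normalized counts per kb of exons, their median lay at percentile 95.3 of the genes tested, 28 of 38 were above percentile 90, and 36 were above the median. Cd79b and Cd79a, the signal chains of the receptor, led with 24734 and 19818 per kb as means over the 8 libraries, followed by Cd22 with 8030 and Ptpn6 with 7657. The spread over libraries was 19295 to 29237 per kb for Cd79b and 17460 to 22823 for Cd79a, so their ranges overlap. At the other end stood Lat, a membrane adaptor best known from T cells, with 18.3 per kb (percentile 18.2), and Vav3 with 75.1 (percentile 39.6).

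**Figure D1:**
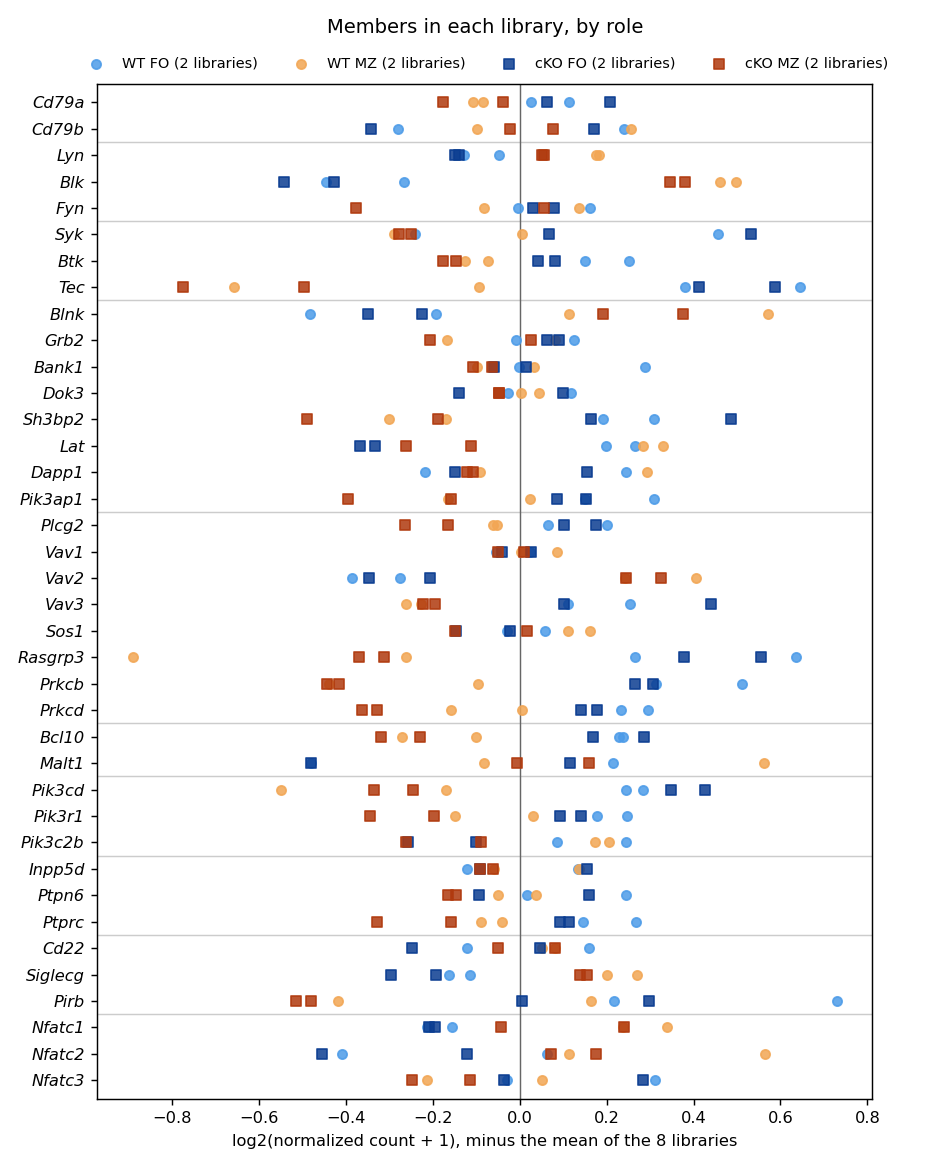
Log2(normalized count + 1) of the 38 members in each of the 8 libraries, minus the member's mean over the libraries, on the x axis, with members on the y axis grouped by role from the receptor chains at the top to the NFAT factors at the bottom. Blue marks FO and orange marks MZ, circles WT and squares cKO. For Tec, Rasgrp3, Prkcb and Pik3cd all 4 FO libraries lie to the right of the MZ libraries, and for Blk, Blnk and Vav2 to the left.

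The FO and MZ subsets differed at several steps of the pathway, in both directions. Over both genotypes, Tec, Rasgrp3, Prkcb, Pik3cd and Pirb were higher in FO, and Blk, Blnk and Vav2 were higher in MZ B cells, by limma at 1.5-fold or more and an adjusted p (Benjamini-Hochberg) of 0.05 or less (called, below). These 8 called members are 21.1% of the 38, beside 18.4% of all genes tested. Higher in FO were 13.2% of the members and 7.45% of all genes, and higher in MZ 7.89% and 10.9%. Without the fold cutoff, 21 members passed the adjusted p (55.3%, against 33.4% of all genes), 14 of them higher in FO and 7 in MZ. The 4 FO libraries did not overlap the 4 MZ libraries for 14 members higher in FO (36.8%, against 17.9% of all genes) and 7 higher in MZ (18.4%, against 18.6%). Here and below, all genes tested were not matched to the members in level, the median member being at percentile 95.3. In bulk RNA, fewer cells expressing a gene and less RNA per cell cannot be told apart.

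Taken within a genotype, 4 members were called higher in WT FO (Tec, Pik3cd, Prkcb, Rasgrp3) and 3 in WT MZ (Vav2, Blk, Blnk), 18.4% of the members against 12% of all genes (10.5% against 4.62% in FO, and 7.89% against 7.41% in MZ). In cKO the called members were Tec, Pik3cd, Prkcb, Sh3bp2 and Rasgrp3 in FO and Blk in MZ, 15.8% against 13.7% (13.2% against 5.54% in FO, and 2.63% against 8.18% in MZ). Thus 4 members were called higher in FO and 1 higher in MZ in both genotypes. The share of all genes called alike in both genotypes was not computed. In cKO, Blnk was just under the fold cutoff (log2 difference -0.57, limma adjusted p = 0.04945). Blnk and Vav2 were both called higher in cKO MZ under quantile normalization (-0.69 and -0.74). Under quantile normalization the split of the members moved toward MZ, to 2 higher in FO and 4 in MZ for WT, 2 and 3 for cKO, and 3 and 3 over both genotypes. The split of all genes moved the other way over both genotypes, from 1100 higher in FO and 1611 in MZ to 1343 and 1378. Single libraries also decided part of the calls. In WT the member count fell by a larger part than that of all genes without WT FO replicate 2 or WT MZ replicate 1. The same held in cKO without cKO FO replicate 2 or cKO MZ replicate 1. Some calls were lost by fold and others by adjusted p. Without WT FO replicate 2, the WT differences of Blnk and Prkcb narrowed to -0.54 and 0.58, under the fold cutoff. Without WT MZ replicate 1, those of Blnk, Pik3cd, Prkcb and Vav2 were -0.45, 0.43, 0.51 and -0.57, also under it. In cKO, Sh3bp2 narrowed to 0.50 without cKO FO replicate 2 and to 0.51 without cKO MZ replicate 1.

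**Figure D2:**
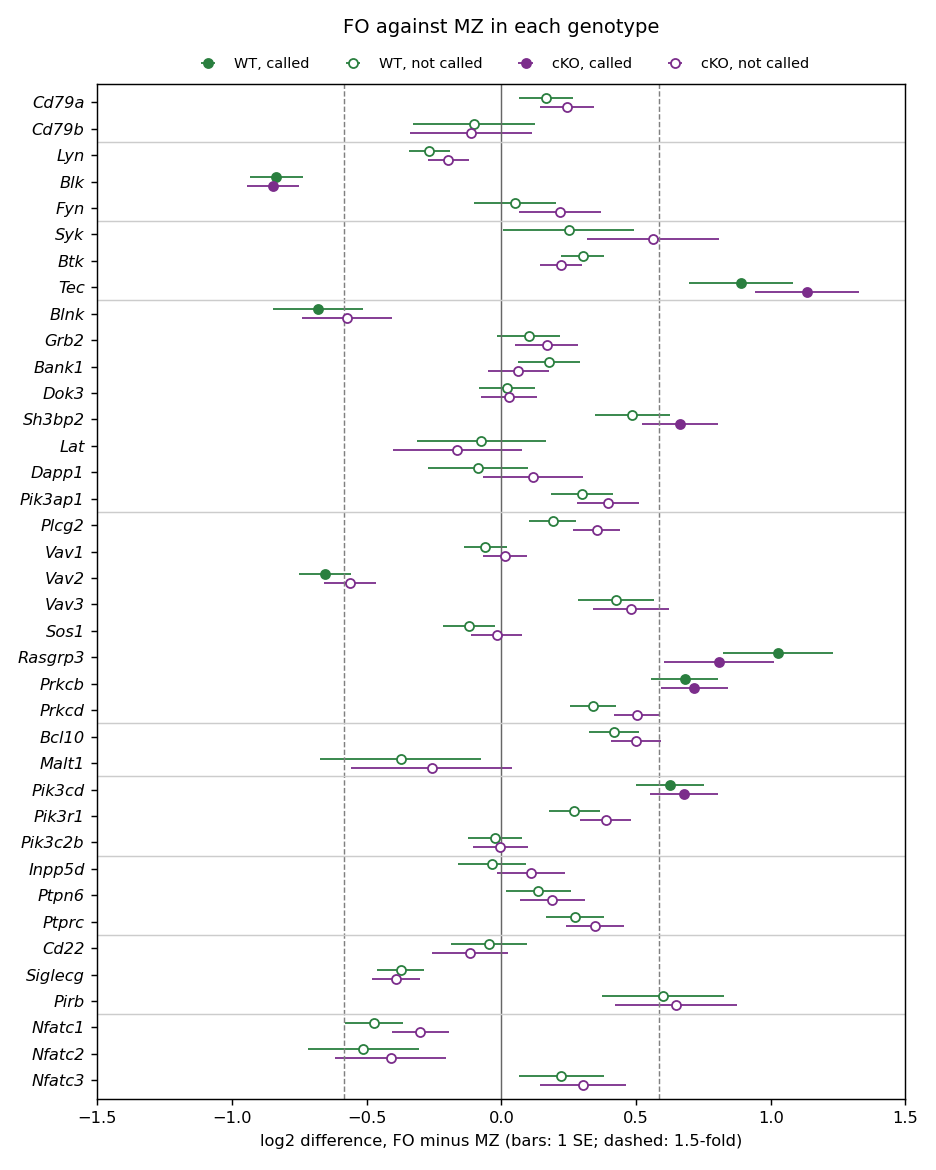
Log2 difference of FO minus MZ for each member (x axis), in WT (green) and cKO (purple), with bars of 1 SE from the limma fit and filled symbols for called members. Dashed lines mark 1.5-fold. The WT and cKO values of a member lie side by side, from Blk (-0.83 and -0.85) to Tec (0.89 and 1.14).

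Among the Src family kinases, which start the signal, Blk was higher in MZ. It was at 14274 and 16163 normalized counts in the libraries of WT FO, 13343 and 14463 in those of cKO FO, 27437 and 26754 in those of WT MZ, and 24723 and 25288 in those of cKO MZ. Every MZ library was thus above every FO library, with a log2 difference (FO minus MZ) of -0.84 (SE 0.07, adjusted p = 0.000109), and Blk was called in all 16 alternative analyses of this comparison. Lyn, which also starts inhibitory signals, showed the same direction at a smaller size (-0.23, SE 0.05, adjusted p = 0.0131), under the fold cutoff, without overlap between subsets. Fyn differed by 0.13 (95% interval -0.12 to 0.38) and its subsets overlapped.

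The Tec family kinase Tec was higher in FO. It stood at 4043 and 4850 normalized counts for WT FO, 4128 and 4662 for cKO FO, 1967 and 2907 for WT MZ and 1814 and 2198 for cKO MZ. The subsets did not overlap, and the log2 difference was 1.01 (SE 0.14, adjusted p = 0.00116), which is 2.02-fold. Btk, the Tec family kinase that is lost in X-linked agammaglobulinemia, was at 7656 and 8213 in the libraries of WT FO, 7296 and 7105 in those of cKO FO, 6319 and 6553 in those of WT MZ, and 6103 and 6236 in those of cKO MZ. Its FO libraries were all above its MZ libraries, but the log2 difference of 0.26 (SE 0.06, adjusted p = 0.00887) was under the fold cutoff. Of the summed Btk and Tec level per kb, Tec made up 30.8% to 35.6% in FO and 20% to 27.2% in MZ libraries.

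Syk, the kinase that carries the signal from the receptor chains, varied strongly between libraries of a group. WT FO held 53244 and 32824 normalized counts, cKO FO 56051 and 40620, WT MZ 38912 and 31742, and cKO MZ 31965 and 32626. FO and MZ overlapped, and the log2 difference of 0.41 (SE 0.17) had an adjusted p of 0.109 in limma. In WT alone the difference was 0.25 and turned to -0.099 without WT FO replicate 1.

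The adaptors went in both directions. Blnk, the scaffold for Btk and phospholipase C gamma 2, was at 10051 and 8228 normalized counts for WT FO, 9829 and 9016 for cKO FO, 17086 and 12431 for WT MZ and 13121 and 14924 for cKO MZ. All MZ libraries lay above all FO libraries, with a log2 difference of -0.63 (SE 0.12, adjusted p = 0.00539). It fell under the fold cutoff without WT FO replicate 2 (-0.55), WT MZ replicate 1 (-0.51) or cKO MZ replicate 2 (-0.58). Sh3bp2, which binds Syk, Vav and phospholipase C gamma, was at 5000.7 and 4616 in the libraries of WT FO, 4526 and 5654 in those of cKO FO, 3591 and 3277 in those of WT MZ, and 2876 and 3543 in those of cKO MZ. Its subsets did not overlap either, with the higher level in FO (0.57, SE 0.10, adjusted p = 0.00355), just under the fold cutoff over both genotypes and above it in cKO (0.66). In cKO the adjusted p was 0.0839 without cKO FO replicate 2 and 0.110 without cKO MZ replicate 1, between 0.000363 and 0.110 over the alternatives.

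Pik3ap1 (BCAP), which links the receptor to phosphoinositide 3-kinase, was higher in FO by 0.35 (SE 0.08, adjusted p = 0.0135) on the log2 scale, under the fold cutoff. The other adaptors overlapped between the subsets. Their log2 differences were 0.13 for Grb2, which couples to Sos, 0.12 for Bank1, which joins Lyn to the calcium channel, 0.02 for the inhibitory adaptor Dok3, 0.01 for Dapp1 (Bam32) and -0.12 for Lat. Grb2 turned to -0.023 under quantile normalization.

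The exchange factors of the Vav family, which activate Rac GTPases, differed from each other. Vav2 was at 5381 and 4982 normalized counts for WT FO, 5643 and 5122 for cKO FO, 8621 and 7701 for WT MZ and 7713 and 8152 for cKO MZ. Vav2 was thus higher in MZ in every library, by -0.61 (SE 0.07, adjusted p = 0.000485). This was close to the fold cutoff, and Vav2 missed it without WT FO replicate 2 (-0.58), WT MZ replicate 1 (-0.57) or cKO FO replicate 2 (-0.57). Vav3 went the other way, with 529.9 and 479 in the libraries of WT FO, 477 and 603 in those of cKO FO, 379 and 370.4 in those of WT MZ, and 381 and 388 in those of cKO MZ, a log2 difference of 0.45 (SE 0.10, adjusted p = 0.0106) that did not reach the fold cutoff. Vav1 differed by -0.02 (95% interval -0.16 to 0.11). Per kb, Vav2 made up 29% to 30.5% of the Vav transcripts in FO and 38% to 39.4% in MZ libraries, and Vav1 66.6% to 67.8% and 58.6% to 59.9%.

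Rasgrp3, the diacylglycerol-driven activator of Ras, was among the members with the widest gap between subsets. It was at 7453 and 9635 normalized counts for WT FO, 8056 and 9109 for cKO FO, 3341 and 5171 for WT MZ and 4796 and 4994 for cKO MZ. FO was above MZ without overlap, by 0.92 (SE 0.15, adjusted p = 0.00241). Over both genotypes Tec and Rasgrp3 were called in all 16 alternatives. Within cKO alone the adjusted p of Rasgrp3 was 0.0304 and rose above 0.05 without any of the 4 cKO libraries (0.0993 without cKO FO replicate 1, 0.140 without cKO FO replicate 2, 0.155 without cKO MZ replicate 1 and 0.114 without cKO MZ replicate 2), within a range of 0.000762 to 0.155 over the alternatives. Sos1, the Ras activator that acts through Grb2, differed by -0.07 (95% interval -0.23 to 0.09).

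The protein kinase C members were both higher in FO. Prkcb, which acts on the way to NF-kB, was at 10998 and 12606 normalized counts in the libraries of WT FO, 10631 and 10936 in those of cKO FO, 6527 and 8273 in those of WT MZ, and 6503 and 6630 in those of cKO MZ. The gap of 0.70 (SE 0.09, adjusted p = 0.000844) left no overlap, and narrowed to 0.56 under quantile normalization, which is under the fold cutoff. Prkcd, tied to B cell tolerance, differed in the same direction by 0.42 (SE 0.06, adjusted p = 0.00159). Plcg2, the lipase that makes diacylglycerol, was higher in FO by 0.27 (SE 0.06, adjusted p = 0.0120). Neither reached the fold cutoff.

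In the NF-kB arm, Bcl10 and Malt1 were not alike. Bcl10 was at 2934 and 2954 normalized counts for WT FO, 3054 and 2816 for cKO FO, 2337 and 2075 for WT MZ and 2008 and 2138 for cKO MZ, a log2 difference of 0.46 (SE 0.07, adjusted p = 0.00149) without overlap and under the fold cutoff. Malt1 was at 19115 and 11815 in the libraries of WT FO, 17861 and 11804 in those of cKO FO, 24334 and 15578 in those of WT MZ, and 16402 and 18414 in those of cKO MZ. Its libraries overlapped, and its difference of -0.32 (95% interval -0.81 to 0.17) was not called.

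The phosphoinositide 3-kinase members were led by Pik3cd, the catalytic subunit p110 delta. It was at 13008 and 13369 normalized counts for WT FO, 13984 and 14742 for cKO FO, 7495 and 9759 for WT MZ and 8698 and 9258 for cKO MZ. FO exceeded MZ in every library, by 0.65 (SE 0.09, adjusted p = 0.00124), 0.52 under quantile normalization and 0.56 without WT MZ replicate 1, both below the fold cutoff. Its regulatory partner Pik3r1 was higher in FO by 0.33 (SE 0.07, adjusted p = 0.00766), and the class II enzyme Pik3c2b differed by -0.01 (95% interval -0.18 to 0.15).

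Of the phosphatases, the receptor-type phosphatase Ptprc (CD45), which frees Src kinases, was higher in FO by 0.31 (SE 0.08, adjusted p = 0.0171). Ptpn6 (SHP-1) differed by 0.16 and Inpp5d (SHIP-1) by 0.04, with adjusted p of 0.181 and 0.777. The inhibitory coreceptors separated. Siglecg, which restrains calcium flux, was at 20239 and 20915 normalized counts in the libraries of WT FO, 18448 and 19824 in those of cKO FO, 27316 and 26037 in those of WT MZ, and 24941 and 25228 in those of cKO MZ, higher in MZ by -0.38 (SE 0.06, adjusted p = 0.00268) without overlap and under the fold cutoff. Cd22 differed by -0.08 (95% interval -0.31 to 0.15).

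Pirb, the paired immunoglobulin-like receptor B, was at 1313 and 1876 normalized counts for WT FO, 1134 and 1389 for cKO FO, 846 and 1267 for WT MZ and 809 and 791 for cKO MZ. It was higher in FO by 0.62 (SE 0.16, adjusted p = 0.0202) over both genotypes, although WT MZ replicate 2 lay above cKO FO replicate 1. The call was lost by fold without WT FO replicate 2 (0.50) and WT MZ replicate 1 (0.48), by both fold and adjusted p without cKO FO replicate 2 (0.55 and 0.0716), and by adjusted p without cKO MZ replicate 1 or cKO MZ replicate 2 (0.0638 and 0.0653), with a range of 0.000794 to 0.0716 over the alternatives. Macrophages and monocytes also express Pirb. The sum of their 12 markers was 799 to 1525 in FO and 775 to 2087 and 1357 to 2181 in WT and cKO MZ, with none of the 12 at 3 reads or fewer in every library, and its part in the Pirb result was not tested.

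Among the NFAT factors, Nfatc1 and Nfatc2 were higher in MZ and Nfatc3 was not called. Nfatc1 was at 7324 and 7033 normalized counts in the libraries of WT FO, 7121 and 7056 in those of cKO FO, 9616 and 10323 in those of WT MZ, and 7920 and 9635 in those of cKO MZ, a log2 difference of -0.39 (SE 0.08, adjusted p = 0.00613). Nfatc2 differed by -0.46 (SE 0.14, adjusted p = 0.0426). Both kept FO and MZ apart but stayed under the fold cutoff. Nfatc3 differed by 0.26 (adjusted p = 0.111). Per kb, Nfatc3 made up 44.2% to 48.9% of the NFAT transcripts in FO and 32.4% to 37.3% in MZ libraries, while Nfatc1 made up 45.1% to 50.5% and 54.5% to 61.2%.

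Cd79a and Cd79b, the receptor's signal chains, were not called in any comparison. Cd79a was at 29278 and 31129 normalized counts for WT FO, 30031 and 33253 for cKO FO, 27140 and 26703 for WT MZ and 25439 and 28028 for cKO MZ. FO lay above MZ in every library, by 0.20 (SE 0.07, adjusted p = 0.0625). Cd79b overlapped, with a difference of -0.11 (95% interval -0.48 to 0.27).

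**Figure D3:**
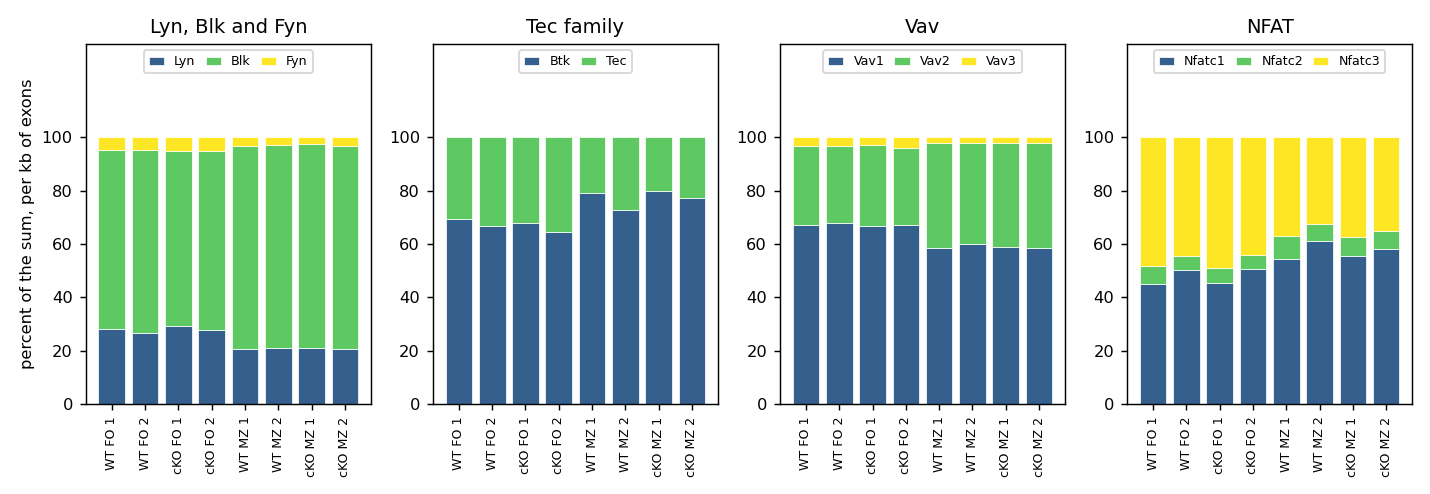
Share of each gene in the summed normalized counts per kb of exons of the genes shown with it (y axis, percent), in each of the 8 libraries (x axis), for the Src kinases Lyn, Blk and Fyn, for Btk and Tec, the 3 Vav genes and the 3 NFAT genes. Vav2 takes 38% to 39.4% of the Vav sum in MZ and 29% to 30.5% in FO libraries, and Tec 20% to 27.2% of the Btk and Tec sum in MZ and 30.8% to 35.6% in FO.

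The direction from FO to MZ was the same in WT and cKO for 35 of 38 members (92.1%), against 84.6% of all genes. Across the 38 genes, which are not independent replicates, the WT and cKO differences had a Pearson r of 0.971 (0.887 across all genes tested). The interaction of genotype and subset was called for 0 members and 0 of all genes (0%) in limma. An unadjusted limma p under 0.05 was found for 0 members, against 0.637% of all genes. For 25 of 38 members the 95% interval of the interaction lay within 1.5-fold, while for the other 13, Tec, Blnk, Syk and Rasgrp3 among them, the interval reached beyond it.

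Beyond the members, 113 further genes of the pathway were tested. Over both genotypes 14 were called higher in FO and 14 higher in MZ, 24.8% of the list against the 18.4% of all genes. In both WT and cKO, 9 were called higher in FO and 10 higher in MZ, again without a computed share of all genes. Among the 9, with limma adjusted p of 0.000271 or less over both genotypes, were Dgka, a kinase that removes diacylglycerol (log2 difference 1.09), Ppp3ca, the catalytic subunit of calcineurin (0.97), protein kinase D2 (Prkd2, 0.88) and Foxo1, the factor that Akt excludes from the nucleus (0.67).

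Among the 10 higher in MZ, with limma adjusted p of 0.000179 or less, were Lair1, Lilrb4a, Dok2, Ptprj and Cd81. Lair1, an inhibitory collagen receptor, was at 42.5 to 49.5 normalized counts in FO and 520.1 to 729.6 in MZ libraries (log2 difference -3.76). Lilrb4a, an inhibitory receptor of the same class, differed by -3.06 and the adaptor Dok2 by -2.50. The phosphatase Ptprj (CD148) differed by -0.98 and the tetraspanin Cd81 by -0.84. Lair1, Lilrb4a and Dok2 are also expressed by myeloid cells. The macrophage and monocyte sums above overlapped between FO and MZ, with WT MZ replicate 1 the lowest of the 8 libraries. The sum of 8 dendritic cell markers was higher in MZ, at 213 to 310.1 normalized counts in FO and 314 to 519 in MZ libraries, as was that of 6 NK cell markers, at 98.6 to 370.1 and 397 to 576. None of these markers was at 3 reads or fewer in every library, and the part of such cells in the Lair1, Lilrb4a and Dok2 results was not tested.

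Between cKO and WT, 0 of the 38 members were called in FO (0.0677% of all genes were), 0 in MZ (0.0339%) and 0 over both subsets (0.108%) in limma. DESeq2 and edgeR on the recovered reads also called 0 in each. An unadjusted limma p under 0.05 was found for 2 members in FO, 2 in MZ and 3 over both subsets. These were 5.26%, 5.26% and 7.89% of the members, beside 2.59%, 4.04% and 6.63% of all genes tested. DESeq2 gave 1, 2 and 3 such members, and edgeR 2, 2 and 3. The 95% interval of the cKO minus WT difference over both subsets lay within 1.5-fold for 35 of 38 members, the others being Lat, Malt1 and Pirb. In FO it did so for 32 and in MZ for 29.

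Btk, the kinase that binds TFII-I, differed between cKO and WT by -0.14 (95% interval -0.32 to 0.04) in FO and -0.06 (-0.24 to 0.12) in MZ, and by -0.10 over both subsets (adjusted p = 0.818). In each subset the cKO libraries lay below the WT libraries without overlap, by sizes within the fold cutoff. Btk lies on the X chromosome at chrX:134542336-134583570, so the difference in sex-linked transcripts moves with genotype here as well. Syk differed by 0.19 (-0.38 to 0.76) in FO and -0.12 (-0.69 to 0.44) in MZ, and Plcg2 by 0.01 (-0.20 to 0.21) and -0.16 (-0.36 to 0.05).

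**Figure D4:**
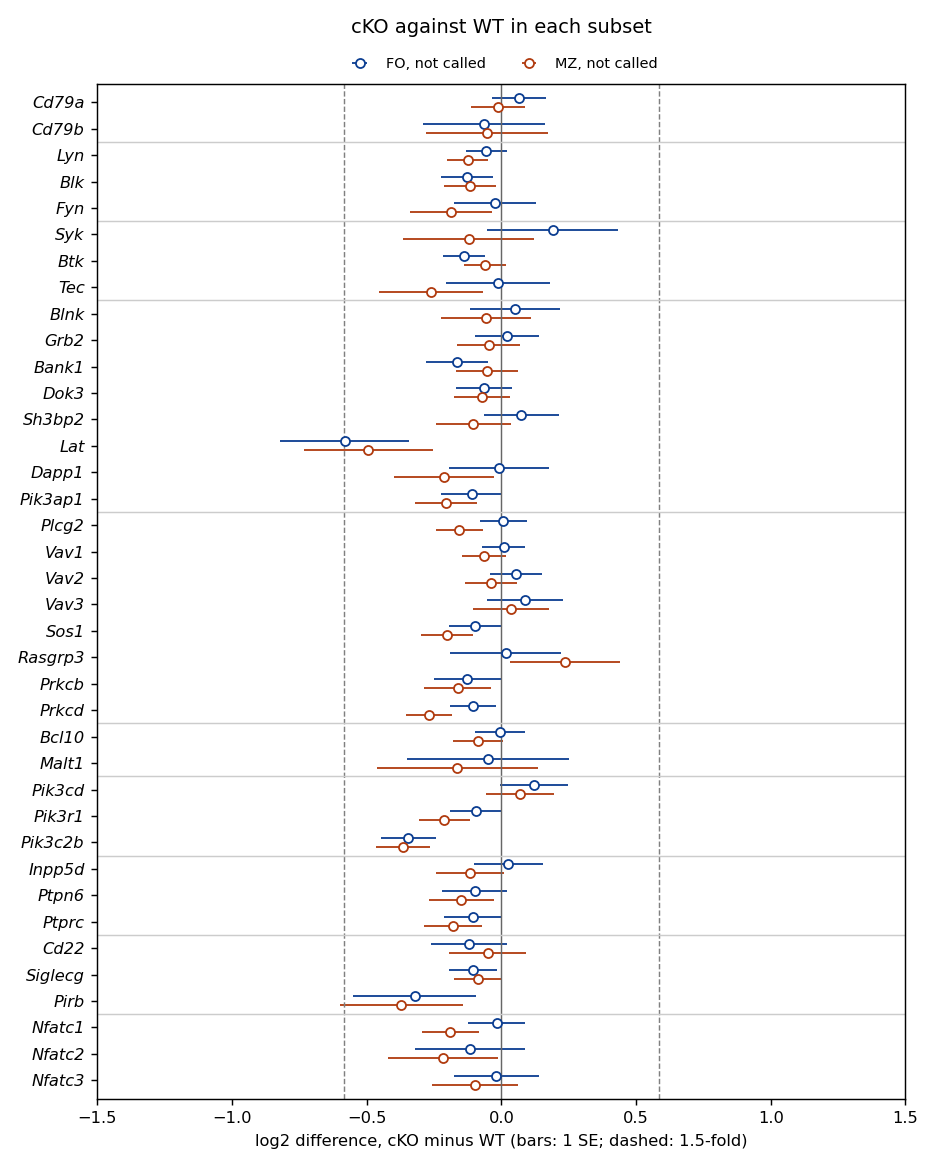
Log2 difference of cKO minus WT for each member (x axis) in FO (blue) and MZ (red), with bars of 1 SE from the limma fit. Dashed lines mark 1.5-fold, and open symbols show that no member was called. In MZ 35 of 38 members lie left of 0, most of them within 0.3 of it.

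Most of the small genotype differences were negative. In MZ, 35 of 38 members had a lower mean in cKO (92.1%, against 53.1% of all genes), with a median log2 difference of -0.12 beside -0.01 over all genes, and for 16 members both cKO libraries lay below both WT libraries (42.1%, against 18.7%). In FO the counts were 26 of 38 (68.4%, against 52.5%), with a median of -0.05, and 9 members without overlap (23.7%, against 13.1%). The 113 further pathway genes leaned the same way, with 80.5% of them lower in cKO in MZ and 70.8% in FO. The MZ count was 28 of 38 without cKO MZ replicate 1, the library with the high granulocyte sum, and 28 of 38 under quantile normalization, with medians of -0.08 and -0.09. In FO it was 25 without cKO FO replicate 1, the library with Xist, and 23 under quantile normalization. The parts of the granulocyte sum and of Xist in these counts were not tested.

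Pik3c2b and Lat were the members for which all 4 cKO libraries were below all 4 WT libraries (2 of 38, or 5.26%, against 1.09% of all genes). Pik3c2b was at 7243 and 6489 normalized counts for WT FO, 7052 and 6888 for WT MZ, 5695 and 5115 for cKO FO and 5096 and 5745 for cKO MZ. Its difference over both subsets was -0.36 (SE 0.07), 21.8% lower in cKO, with an adjusted p of 0.258 in limma. DESeq2 gave an adjusted p of 0.0172, the lowest of the alternatives, which reached up to 0.966, and the size was under the fold cutoff in all of them. Lat was at 59.9 and 57.1 for WT FO, 62.6 and 60.7 for WT MZ, 39.2 and 38.2 for cKO FO and 45.8 and 41.2 for cKO MZ. The difference of -0.54 (SE 0.17) had an adjusted p of 0.667, and rests on 35 to 67 reads in a library.

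Lat is best known from T cells, and the T cell list moved with it between the genotypes. The sum of 12 T cell markers, each with more than 3 reads in some library, was 116 and 166 for WT FO beside 98.5 and 87.6 for cKO FO, and 433 and 274 for WT MZ beside 237 and 210 for cKO MZ. The part of T cells in the Lat result was not tested. The T cell sum was higher in MZ than in FO libraries, whereas Lat differed between the subsets by -0.12 (SE 0.17). The sum of 6 NK cell markers was also lower in cKO FO (98.6 to 157.9) than in WT FO (159.7 to 370.1). In MZ that sum overlapped between the genotypes, at 467.1 to 530.7 in WT and 397 to 576.1 in cKO.

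**Figure D5:**
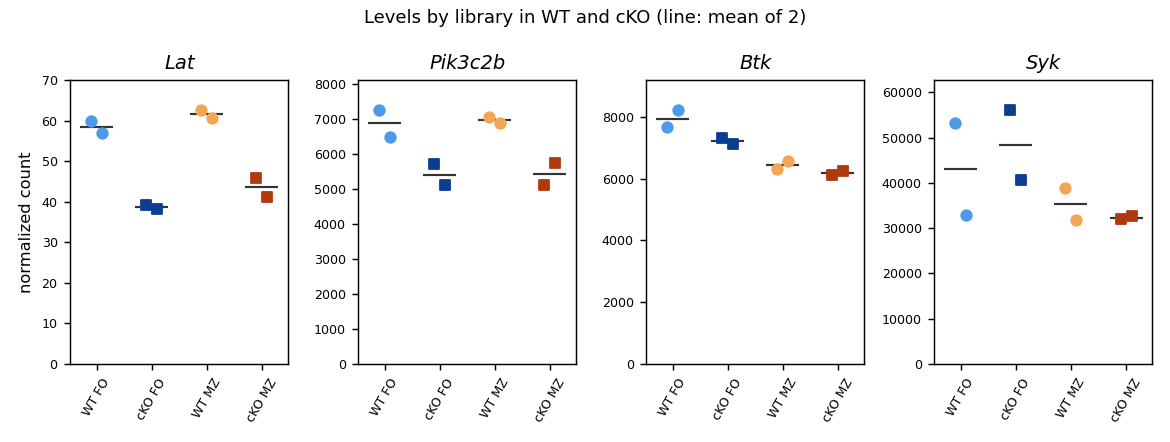
Normalized counts (y axis, from 0) of Lat, Pik3c2b, Btk and Syk in each library, by group on the x axis, with a line at the mean of the 2 libraries. Lat and Pik3c2b are lower in all 4 cKO libraries, and Syk overlaps between the groups.

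None of the remaining members was called between the genotypes. Prkcd differed by -0.27 in MZ (SE 0.09, unadjusted p = 0.0151, adjusted p = 0.998 in limma) and differed by -0.19 over both subsets. Pirb differed by -0.35 over both subsets (95% interval -0.72 to 0.03), Cd79a by 0.03 (-0.14 to 0.19) and Cd79b by -0.06 (-0.43 to 0.31). The members with the widest FO to MZ differences had small genotype differences over both subsets, namely Tec -0.14 (-0.45 to 0.18), Rasgrp3 0.13, Prkcb -0.14, Pik3cd 0.10, Blk -0.12, Vav2 0.01 and Blnk -0.004 (-0.28 to 0.27). Over FO and MZ, 29 of 38 members had the same sign of the genotype difference in the 2 subsets (76.3%, against 64.8% of all genes).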

How the data were processed

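RNA-seq of 8 libraries (2 in each of 4 groups, grouped by sample titles) was analysed; 8 ATAC-seq samples were not analysed here. Per the labels and methods, rRNA-depleted total RNA gave 50-base single-end reads, aligned to mm10 with HISAT2 and counted on genes. The authors deposited normalized counts, a signal made by dividing reads by DESeq2 size factors; 256343 blank lines were left out. Whole reads were recovered for 100% of values within 0.01. Reads of a gene and of an overlapping antisense gene may not be told apart (Ptpn6, Cd22).

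Log2(normalized count + 1) of 14761 genes with a mean of at least 10 entered a limma 3.58.1 fit (R 4.3.3; 4 group means, eBayes with trend; fold changes are on this scale). Calls needed 1.5-fold and an adjusted p (Benjamini-Hochberg, all genes) of 0.05 or less. Alternatives were a pseudocount of 0.5, no filter, quantile normalization, only the 4 libraries compared, a replicate block, DESeq2 1.42.0, edgeR 4.0.16 (quasi-likelihood), no or a 2-fold cutoff and leaving out each library; an additive fit and an exchanged block were added after seeing the data. The scripts were tested on simulated data. Members and lists were chosen with earlier results of these data known. Named are all members, Gtf2i, up to 6 pathway genes per direction by p, and markers that bear on a member; some genes that the rule covers are not reported here. Coordinates are from GENCODE M21 (GRCm38), which held 27872 of the genes.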

Additional observations from a re-analysis of the deposited data

How the results depend on the processing

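The 0 members called in each genotype comparison and in the interaction held in every alternative run, while the FO against MZ counts moved. With the 4 libraries compared alone, 2 members were called in WT, against 7 in the fit of all 8. Of all genes, 378 were then called higher in FO and 636 in MZ, against 682 and 1094 in the fit of all 8. Without a fold cutoff the counts were 13 in WT, 14 in cKO and 21 over both genotypes, and with a 2-fold cutoff 1, 1 and 1, against 7, 6 and 8. Leaving out each library in turn gave 2 to 8 in WT, 2 to 7 in cKO and 5 to 9 over both genotypes, and 0 to 0 for the genotype comparisons and the interaction; where an arm then held 1 library, that library was assumed to vary like the other groups. Lat, with 35 to 67 reads, was limited by depth, and the precision of all members by the number of libraries.

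Signs turned for 8 differences larger than their error. Under quantile normalization Grb2 in FO against MZ became -0.023 over both genotypes and -0.017 in cKO. Syk in WT FO against MZ was -0.099 without WT FO replicate 1 and 0.60 without WT FO replicate 2. In cKO against WT MZ, leaving out each library gave a range of -0.44 to 0.010 for Nfatc2 (upper end without WT MZ replicate 1), -0.079 to 0.55 for Rasgrp3 (lower end without WT MZ replicate 1), -0.54 to 0.022 for Tec and -0.33 to 0.0086 for Prkcb (upper ends without WT MZ replicate 2), and -0.40 to 0.028 for Fyn (upper end without cKO MZ replicate 1). The causes were not tested. Another 218 of 4218 differences changed sign within 1 SE of 0.

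The replicate numbers were not taken as pairs. The correlation of their deviations ran from 0.591 (WT FO with WT MZ) to -0.296 (WT MZ with cKO MZ). With the replicate block, 8 members were called in WT, 7 in cKO, 8 over both genotypes and 0 in each genotype comparison. Exchanging the numbers of cKO MZ gave the same counts, 8, 7, 8 and 0.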
